A study of Sus scrofa with 34 samples.

Results

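Interferon-stimulated genes are the genes that cells switch on when they sense a virus or receive an interferon signal, and 43 of them, named by pig gene symbol, were followed here in the ileum and liver of piglets. Of the 43, 39 had a row among the 25880 genes counted. DDX58, the gene of the RNA sensor RIG-I, is listed as RIGI in the annotation used for naming. OAS1, IFIT3, XAF1 and RTP4 were matched to no row and were not analysed here. The members were chosen by name and not by a cut on their values, but with earlier results of these data known. By role, all 6 sensors of viral nucleic acid were present, as were 18 of 21 antiviral effectors, all 9 genes of ISG15 and other ubiquitin-type modifiers, and 6 of 7 signalling and other genes.

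The libraries came from weaned crossbred piglets of Landrace × Large White sows and a Pietrain boar, which were fed 1 of 4 diets for 28 days. The diets were a control feed, the control feed with an essential oil-based phytogenic feed additive (PFA, whose main substances include carvacrol and thymol), a feed with oxidized oil (OO), and a feed with both (OO + PFA). Oxidized rapeseed oil took the place of part of the basal feed, so the OO feeds also held more oil and more calculated energy. Oxidation, added oil and energy therefore cannot be told apart where these feeds are compared with control. Mid ileum was sequenced in 5 control and 5 PFA pigs. Liver was sequenced in 6 pigs of each diet. By diet and number, all 10 ileum pigs were among those with a liver library. Each diet was fed in 1 pen, so diet and pen cannot be told apart, and p-values measure the spread between pigs of 1 pen. Both sexes were in the trial and the sex of each pig was not used here. Pigs are named by a diet letter (C, P, OO or OP for OO + PFA) and their number.

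Counts assigned to genes ranged from 18772230 to 24338165 per ileum library and from 18738055 to 42446834 per liver library. The liver library of OP-77 entered no comparison here, so that OO + PFA had 5 liver libraries in the fits. The study left out a liver library of this diet for signs of RNA degradation that included the lowest share of mapped reads, without a pig number in its text, and its mapping statistics give the lowest share to OP-77. In OP-77 the 10 most abundant genes took 48.3% of the gene counts, against 12.5% to 34.8% in the other 33 libraries, and 23.2% of the counts were not uniquely aligned, against at most 11.6%. The tissue labels were checked with marker genes. Summed levels of 8 hepatocyte markers were 88392 to 206866 CPM, the counts scaled to library size, in liver and 726 to 1816 CPM in ileum, and those of 7 ileal enterocyte markers were 18565 to 34064 CPM in ileum and 2594 to 7603 CPM in liver. The hepatocyte sum in ileum was nearly all CPS1 (725 to 1815 CPM), a urea cycle enzyme of both tissues, and the enterocyte sum in liver nearly all the lipoprotein gene APOB (2120 to 7142 CPM) and ANPEP (225 to 559 CPM). The enterocyte markers FABP2, SI, FABP6 and SLC10A2 were each at or near 0 in liver. One ileum library stood apart: in C-80 the 7 B cell markers summed to 632 CPM, against 14.3 to 26.8 CPM in the other 9 ileum libraries. These are pieces of whole tissue, in which fewer cells of a type and less RNA per cell cannot be told apart.

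Type I and type III interferons bind receptors whose kinases activate transcription factors, among them STAT2, which with IRF9 binds the interferon-stimulated response element (ISRE) upstream of the genes followed here. RIG-I (DDX58), MDA5 (IFIH1) and ZBP1 sense viral nucleic acid, while the MX, IFIT and OAS proteins, RSAD2 (viperin) and the GBP guanylate-binding proteins act against viruses or intracellular microbes. ISG15 is a ubiquitin-like protein that is attached to other proteins, USP18 removes it and damps signalling from the receptor, and UBA7, HERC6 and TRIM25 belong to the enzymes of ubiquitin-like tagging. The intestine meets microbes continuously and is known for a standing level of these genes, whereas in liver they rise with infection.

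The ISRE letters stood upstream of a larger share of the members than of all genes. The ISRE core GAAANNGAAA, searched on both strands (TTTCNNTTTC on the other strand), was found within 250 bases upstream of the gene start in 13 of 41 members with a RefSeq position in the Sscrofa11.1 assembly (31.7%). It was found in 589 of 19545 such windows over all genes (3.01%). The 13 were BST2, DTX3L, IFI44L, IFI6, IFIH1, IFIT3, ISG15, OAS2, OASL, RSAD2, UBA7, USP18 and ZBP1. The core of the gamma-activated sequence, TTCNNNGAA, searched the same way, was found in 1 of 41 members, BST2 (2.44%), and in 6.11% of all windows. IFIT5 and SAMD9 had no position to search. Matches of 1 motif may overlap each other, and a match is a description of letters, not a measured binding site.

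Stretches around the matches are shown for 6 members whose counts are described later: ISG15 and USP18, which were lower in PFA ileum at an unadjusted p under 0.05, RSAD2, OAS2 and DTX3L, and IFI44L. Each runs 5′ to 3′ on the strand of its gene, with the ISRE core matches in capitals, and the coordinates are those of Sscrofa11.1.
ISG15, chr6:63363047-63363122, + strand: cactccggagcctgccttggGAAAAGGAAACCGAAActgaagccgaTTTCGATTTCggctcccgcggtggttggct
USP18, chr5:70183158-70183207, + strand: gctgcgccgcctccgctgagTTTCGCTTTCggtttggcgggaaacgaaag
RSAD2, chr3:128897910-128897959, - strand: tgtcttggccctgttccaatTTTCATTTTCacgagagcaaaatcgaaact
OAS2, chr14:38847698-38847735, - strand: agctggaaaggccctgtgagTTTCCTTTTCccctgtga
DTX3L, chr13:137961390-137961445, - strand: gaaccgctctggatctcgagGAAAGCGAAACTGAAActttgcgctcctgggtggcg
IFI44L, chr6:134679213-134679259, - strand: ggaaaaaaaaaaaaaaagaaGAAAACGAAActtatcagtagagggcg

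Several members lie side by side. RSAD2 and CMPK2 start head to head on chromosome 3 with 5585 bases between them, MX2 and MX1 follow each other on chromosome 13 with 21436 bases between, and IFI44 and IFI44L lie 10372 bases apart on chromosome 6. DTX3L and PARP9 overlap by 395 bases on opposite strands. The strand setting of the read counting is not given in the sources used here, so reads in that overlap cannot be assigned to 1 of the pair with certainty. Counts of related family members (MX1 and MX2, GBP1 and GBP2, the IFIT genes, SAMD9) may miss reads that fit more than 1 gene. Reads that were not uniquely aligned are in none of the gene counts.

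In control ileum the members were led by the guanylate-binding proteins. Per kilobase of exon, GBP1 averaged 602 CPM, GBP2 245 CPM, IFIT1 151 CPM, OAS2 143 CPM and RSAD2 99.1 CPM in the 5 control pigs. The lowest of the 37 members with a length were UBA7 (0.517 CPM per kilobase), TRIM25 (8.78), TRIM21 (8.93), ISG20 (8.97) and DHX58 (10.04). In control liver the order was different, with IFI6, a small mitochondrial protein, first at 469 CPM per kilobase. STAT2 (78.6), OAS2 (65.0), LGALS3BP (47.5) and BST2 (34.8) followed, and UBA7 (0.0519), ISG20 (0.795), OASL (0.832), ZBP1 (1.63) and DTX3L (1.90) were lowest. UBA7 had too few counts in liver to pass the filter, so 38 members were tested there and 39 in ileum.

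Levels in the 2 tissues were compared in the 10 pigs with both libraries, in 1 fit with 1 scaling (TMM) over all 20 libraries. The paper states a lower minimum RNA integrity for liver than for ileum, and any such difference cannot be told apart from tissue. The fit had groups of tissue and diet and no term for the pig, so its SEs and p-values ignore the pairing. Calls with the pig as a block are given at the end. In that fit 29 of 39 members were called at an adjusted p of 0.05 or less in edgeR's quasi-likelihood test. The same holds for 78.1% of all genes tested, so a difference between ileum and liver was common to most genes. Of the members, 24 were called higher in ileum, where 40.6% of all genes were called higher. UBA7 is among these 24 (log2 fold change 2.48). It was near 0 in liver and entered the fit through its ileum counts, so its call is not read as a result. GBP2 was higher in ileum by a log2 fold change of 4.42 (SE 0.19), GBP1 by 3.74 (SE 0.17), DTX3L by 2.59 (SE 0.15), PARP9 by 1.72 (SE 0.11) and SAMD9 by 1.68 (SE 0.11). On this joint scale GBP2 averaged 366 CPM ± 136 (SD, n = 5) in control ileum and 18.8 CPM ± 3.38 in the liver of the same 5 pigs.

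Called lower in ileum than in liver were IFI6 (log2 fold change -3.34, SE 0.31), STAT2 (-2.77, SE 0.12), SAMHD1 (-1.43, SE 0.11), LGALS3BP (-1.13, SE 0.31) and IFI35 (-0.59, SE 0.12). STAT2, the transcription factor of the type I signal, averaged 81.3 CPM ± 9.36 in control ileum and 534 CPM ± 78.4 in control liver, and the ranges over the 10 pigs did not overlap (62.0 to 97.5 and 393 to 770 CPM). MX1 (log2 fold change -0.20, SE 0.43) and ISG15 (0.22, SE 0.48) did not pass. With library sizes alone in place of TMM, a scaling added after seeing the data, the median of all genes moved from 0.05 to 1.17, and 37 members were called, 34 higher and 3 lower. IFI6 (-2.22), STAT2 (-1.64) and SAMHD1 (-0.30) were still called lower. LGALS3BP (-0.02) was no longer called and IFI35 (0.54) was called higher, so lower levels of these 2 in ileum depend on the scaling.

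**Figure D1:**
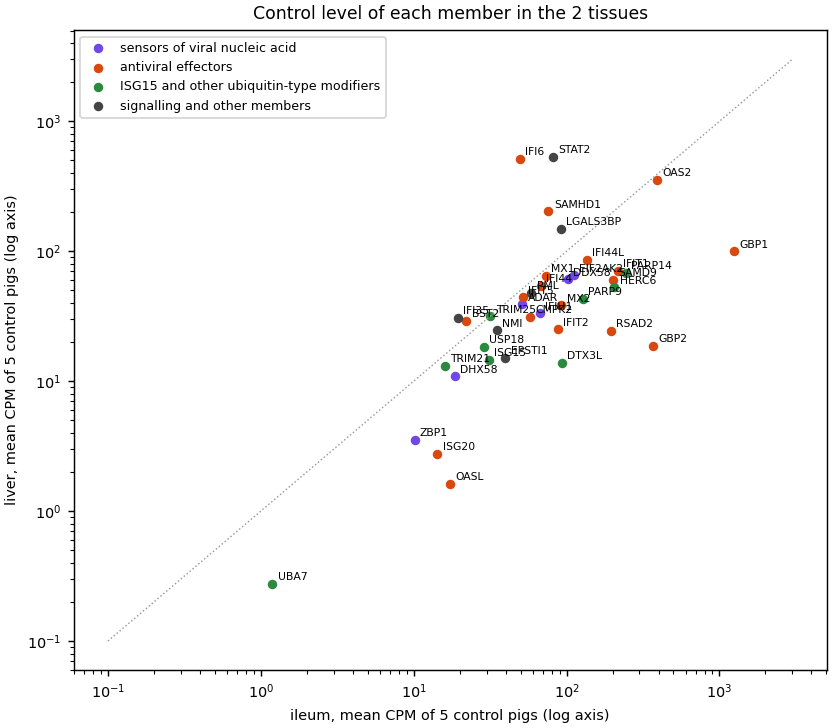
Mean level of each member in ileum (x axis, CPM) and liver (y axis, CPM) of the 5 control pigs sequenced in both tissues, on joint TMM scaling and log axes, with colours for roles and a dotted line at equal levels. GBP1 and GBP2 lie far to the ileum side, and IFI6 and STAT2 far to the liver side.

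The members differed between pigs of 1 diet more than most genes did. The SD of log2 CPM between pigs of a diet, pooled over diets, had a median of 0.50 over 39 members in ileum, against 0.30 over all 14300 genes tested there. In liver the medians were 0.56 over 38 members and 0.35 over all 13831 genes. Above the 90th percentile of all genes (0.68 in ileum, 0.73 in liver) lay 12 of 39 members in ileum and 6 of 38 in liver. The SD was largest in ileum for ISG15 (1.35), OASL (1.24), MX1 (1.09), RSAD2 (1.01), LGALS3BP (0.96) and IFIT2 (0.92), and in liver for ISG15 (1.22), MX1 (1.01), RSAD2 (0.88), MX2 (0.82), DHX58 (0.76) and LGALS3BP (0.73). It was smallest for STAT2 (0.19), SAMHD1 (0.22) and PARP14 (0.22) in ileum, and for SAMHD1 (0.21), STAT2 (0.23) and IFI35 (0.24) in liver. Members with an ISRE core in the 250-base window had a median SD of 0.56 in ileum (12 members) and 0.67 in liver (11), and those without had 0.42 (25) and 0.47 (25), given as a description.

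A few pigs held most of the high values. As a per-pig summary, each member's log2 CPM was taken relative to its mean over the libraries of the tissue and averaged over the members. In ileum this mean was 0.95 in C-100 and 0.51 in C-71, and it was -0.39 in C-110, another control pig. C-100 had the highest value of all 10 ileum pigs in 31 of 39 members. Among the PFA pigs the mean ran from -0.43 in P-134, lowest of all 10 in 19 members, to 0.20 in P-75. In liver OO-99 (1.13) and P-67 (0.81) were highest, OO-99 being highest of all 23 pigs in 20 of 38 members and P-67 in 10. OO-102, P-107 and OP-137 were lowest, each at -0.47. The 6 control livers stayed within -0.10 to 0.20.

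**Figure D2:**
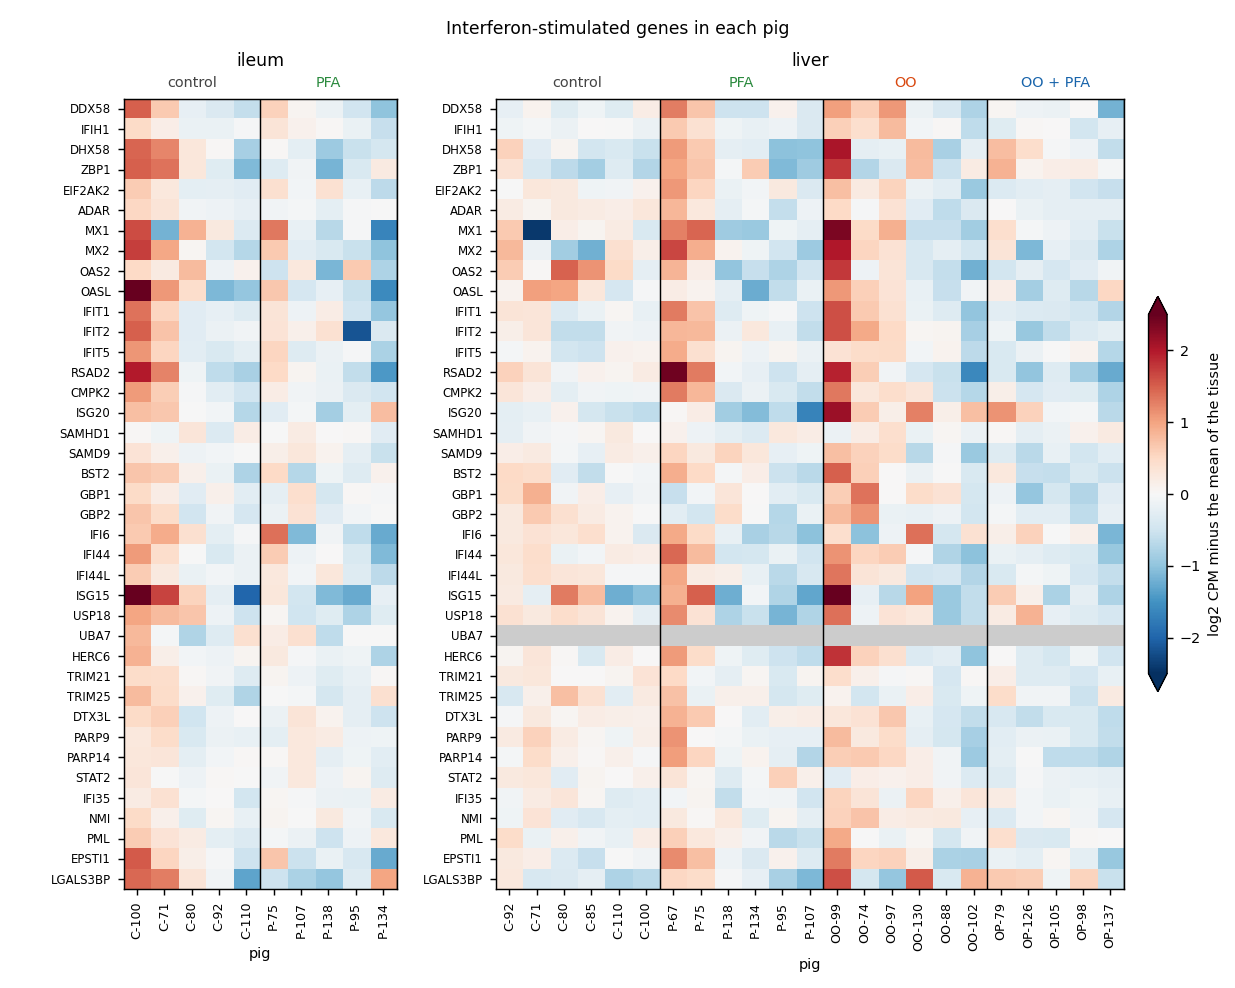
Members (rows, by role) in each pig (columns, by tissue and diet), coloured by log2 CPM minus the member's mean over the libraries of the tissue, with pigs ordered within a diet by their mean over members. Most rows are high in C-100 in ileum and in OO-99 and P-67 in liver, and UBA7 is grey in liver, where it was not tested.

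The first question of the study was what PFA does to the ileum without a challenge. Besides a test per gene, the paper ran a gene set analysis over all genes. It reported reduced activity of gene sets that included interferon alpha/beta signaling in the PFA group. Here each gene was tested on its own. No member was called between the 5 PFA and 5 control pigs, and none of all 14300 genes was (0%). The smallest adjusted p among members was 0.991, and 3 members had an unadjusted p under 0.05, as did 401 of all genes (2.8%). DESeq2 called 4 of all genes and no member, with 4 members at an unadjusted p under 0.05. The log2 fold change lay below 0 in all 39 members, against 46.7% of all genes, and its median was -0.26 (all genes 0.02). By role the medians were -0.36 for the 6 sensors, -0.38 for the 18 effectors, -0.21 for the 9 modifiers and -0.17 for the 6 signalling and other genes. Members whose levels move together across pigs do not add up as separate evidence, and this shared direction was known from earlier results of these data.

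The 3 members at an unadjusted p under 0.05 were USP18, DHX58 and ISG15. USP18 was at 59.8, 21.3, 52.6, 49.0 and 27.8 CPM in C-100, C-110, C-71, C-80 and C-92, and at 21.5, 24.7, 24.5, 31.6 and 17.7 CPM in P-107, P-134, P-138, P-75 and P-95. C-100, C-71 and C-80 stood above every PFA pig, and C-110 and C-92 lay within the PFA range. Its log2 fold change was -0.81 (SE 0.27, unadjusted p = 0.0117 and adjusted p = 0.991 in edgeR's quasi-likelihood test). ISG15 was at 120, 4.56, 59.7, 27.0 and 15.8 CPM in the control pigs and at 13.4, 16.0, 8.53, 22.5 and 7.69 CPM in the PFA pigs, in the same orders. The lowest of all 10 values and the 3 highest were all in control pigs. Its log2 fold change was -1.74 (SE 0.68, unadjusted p = 0.0261).

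DHX58, a relative of RIG-I without its signalling domain, was at 47.8, 9.66, 40.3, 20.9 and 17.7 CPM in the control pigs and at 14.5, 12.6, 9.10, 17.7 and 11.7 CPM in the PFA pigs. Its log2 fold change was -1.06 (SE 0.38, unadjusted p = 0.0164). The next members by p were ZBP1 (log2 fold change -0.94, SE 0.46), OASL (-1.36, SE 0.68) and RSAD2 (-0.95, SE 0.54). None of the 39 members had groups that did not overlap, which held for 0.559% of all genes.

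The antiviral effectors most used as interferon reporters overlapped widely between the diets. MX1 was at 225, 57.2, 31.9, 133 and 86.4 CPM in the control pigs and at 63.8, 22.9, 44.7, 182 and 71.2 CPM in the PFA pigs. RSAD2 was at 666, 96.3, 399, 158 and 109 CPM in the control pigs and at 177, 62.2, 151, 239 and 110 CPM in the PFA pigs. In both genes C-100 was highest, and P-75 was the highest of the PFA pigs. IFIT1 was at 623, 195, 356, 201 and 211 CPM in the control pigs and at 224, 125, 276, 305 and 176 CPM in the PFA pigs. OAS2, a synthetase that activates an RNA-degrading enzyme, was at 644, 493, 533, 786 and 418 CPM in the control pigs and at 549, 265, 206, 318 and 718 CPM in the PFA pigs. In OAS2 it was C-80, not C-100, that was highest, and P-95 was next. STAT2 hardly differed between pigs, at 106 to 143 CPM in the control and 92.6 to 140 CPM in the PFA group.

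**Figure D3:**
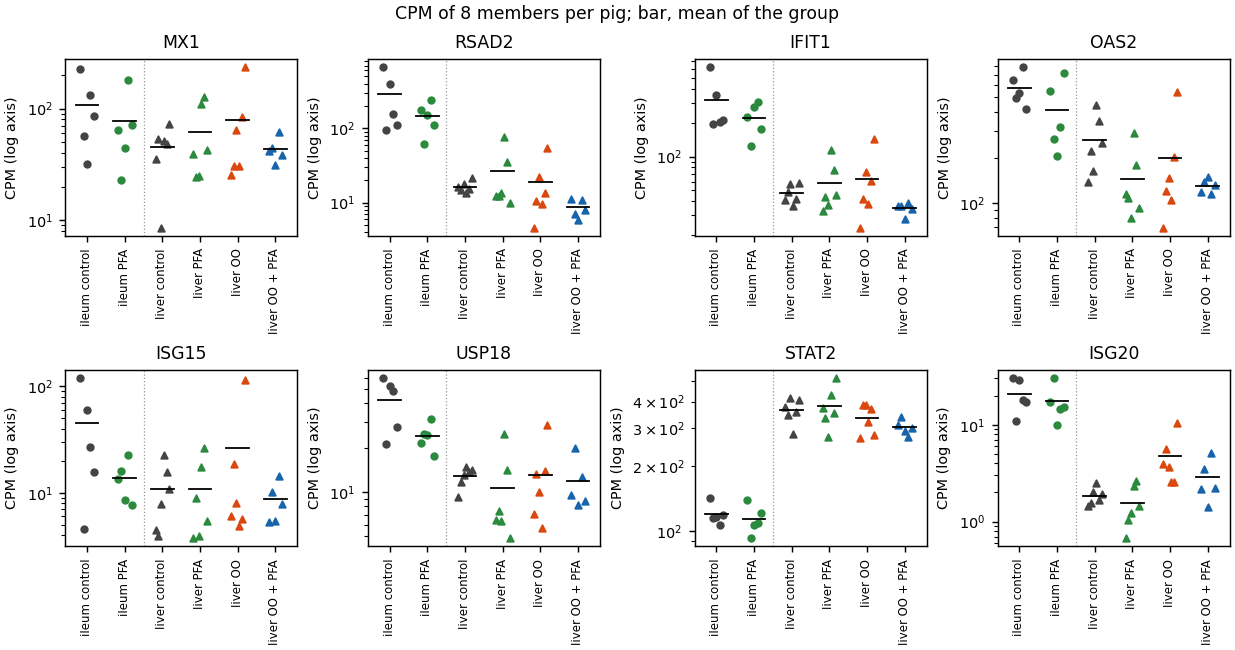
Level of 8 members (CPM on a log axis, scaled within each tissue) in every pig, by diet, with circles for ileum, triangles for liver and a bar at the mean. In ileum C-100 is the top control point of all but OAS2, and in liver OO-99 is the top OO point of all but STAT2.

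The size of the ileum difference rested on C-100. Without it 31 of 39 members were lower in PFA, at a median of -0.09 on the log2 scale, and 1 member at an unadjusted p under 0.05. Without C-110, the control pig with low values, 10 members were at an unadjusted p under 0.05, and leaving out each pig in turn gave medians from -0.41 to -0.09. Markers of other cells also moved with diet. Of 6 tested B cell markers 6 were lower in PFA ileum, with the high sum in C-80 already given; without C-80, 38 of 39 members were lower, with a median of -0.34. Of 7 ileal enterocyte markers 6 were lower, with a median of -0.25 and ANPEP (log2 fold change -0.53, unadjusted p = 0.0011, adjusted p = 0.991) and FABP6 (-0.79) at an unadjusted p under 0.05. Their summed level was 24407 to 34064 CPM in control and 18565 to 28450 CPM in PFA ileum. Of 4 plasmacytoid dendritic cell markers 3 were lower (median -0.54), with SPIB at -1.02 (unadjusted p = 0.0473, adjusted p = 0.991), and their summed level was 60.1 to 153 CPM in control, highest in C-80, and 61.0 to 73.2 CPM in PFA ileum. T cell markers (5 of 7 higher, median 0.04) and macrophage markers (5 of 8 higher) did not show this shift with diet. Across the 10 ileum libraries the order was different. The r with the mean of the members was 0.59 for macrophage, 0.58 for enterocyte and 0.47 for T cell markers. It was -0.07 for B cell and -0.15 for plasmacytoid dendritic cell markers, given as a description. Whether these markers have a part in the difference was not tested.

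The rest of the interferon pathway was read in the same ileum libraries, from lists that were likewise drawn up with earlier results known. No gene of these lists was called. Of the ligands, IFNG was at 3.97 to 9.82 CPM and IFNE at 1.97 to 5.39 CPM, while IFNB1 and IFNK were at or near 0. The 2 ligands tested were both higher in PFA ileum (median log2 fold change 0.35), the other direction from the members, with 0 at an unadjusted p under 0.05. Receptors and their kinases (3 of 8 higher, median log2 fold change -0.04) and inhibitors of the signal (3 of 6 higher, median -0.04) were spread around 0. Among the transcription factors 9 of 11 were lower (median -0.12), with IRF7, the factor that drives interferon alpha genes, at -1.26 (SE 0.58, unadjusted p = 0.0512). Of 9 sensors and adaptors upstream 6 were lower (median -0.15), and TLR8 was higher (0.53, unadjusted p = 0.0329). Of 19 other interferon-stimulated genes 16 were lower (median -0.26), with the chemokine CXCL9 (-0.36) and the macrophage receptor SIGLEC1 (-1.08) at an unadjusted p under 0.05.

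In liver the first test asked whether any of the 4 diets differed. One of 38 members was called, ISG20, an RNA exonuclease (unadjusted p = 6.5e-04, adjusted p = 0.0298), where 3.66% of all 13831 genes were called. At an unadjusted p under 0.05 were 7 members, against 25.2% of all genes, so the members' share was below that of all genes. After ISG20 the smallest p-values were those of GBP1 (adjusted p = 0.0715), DTX3L (0.0895), IFI35 (0.113), NMI (0.116) and IFIT2 (0.141). RSAD2 (unadjusted p = 0.0450) was the seventh. The pairwise comparisons below come from the same fit of 23 libraries. Those with the control diet share its 6 libraries, and both comparisons with OO share the OO libraries, so their directions are not independent of one another.

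PFA alone left no member of the liver called, and none of all genes was called (0%). One member was at an unadjusted p under 0.05, against 11% of all genes. This was OAS2, whose lowest, median and highest level were 138, 235 and 446 CPM in control and 80.3, 112 and 290 CPM in PFA liver. The groups overlapped, with P-67 at the top of the PFA pigs (log2 fold change -0.85, SE 0.40, unadjusted p = 0.0443, adjusted p = 0.449). The next by p were OASL (-0.70, SE 0.35), GBP2 (-0.42, SE 0.24), IFIT5 (0.35, SE 0.20), GBP1 (-0.38, SE 0.24) and ZBP1 (0.63, SE 0.40). In all 23 of 38 members were above 0, a share of members close to the 53.8% of all genes, with a median of 0.11. Without P-67 the median turned to -0.10, with 24 of 38 members below 0. No member's groups were apart, which held for 0.983% of all genes.

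Oxidized oil against control gave 1 called member, again ISG20, where 2.71% of all genes were called. ISG20 was at 1.45 to 2.49 CPM (median 1.81) in the 6 control livers and at 2.55 to 10.3 CPM (median 3.77) in the 6 OO livers. The groups did not overlap, which held for ISG20 among members and for 2.24% of all genes, but the lowest OO pigs lay only just above the highest control pig. Its log2 fold change was 1.36 (SE 0.36, adjusted p = 0.0453), about 2.56-fold. The call was made in 13 of 30 alternative fits, with adjusted p from 0.0092 to 0.530. It was lost without OO-99, which held the highest level and without which the log2 fold change was 0.97 (adjusted p = 0.115). It was also lost without OO-102, OO-130, P-134, OP-98, OP-105 or OP-126 and without each of the 6 control pigs in turn, at log2 fold changes of 1.30 to 1.46. In OO + PFA liver ISG20 was at 2.20, 3.47, 1.42, 5.11 and 2.23 CPM, a range that holds all control pigs and reaches into the OO group (log2 fold change against control 0.64, SE 0.38). In ileum it was at 10.9 to 30.1 CPM in control and 9.89 to 30.6 CPM in PFA pigs.

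The other members by p in OO liver were higher without passing the correction. NMI, a partner of IFI35, had a log2 fold change of 0.46 (SE 0.15, adjusted p = 0.0880), LGALS3BP, a secreted glycoprotein, 1.03 (SE 0.38, adjusted p = 0.125), IFIT2 0.72 (SE 0.31), ZBP1 0.86 (SE 0.40) and IFI35 0.30 (SE 0.14). These 6 were the members at an unadjusted p under 0.05, against 21.4% of all genes. Above 0 were 30 of 38 members, against 57.7% of all genes, with a median of 0.23. That median rested on OO-99: without it 19 members were above and 19 below 0, the median was 0.00, no member was called and 3 were at an unadjusted p under 0.05. ISG15 shows this pig plainly, at 115 CPM in OO-99 against a median of 7.06 CPM in the 6 OO livers and a highest control value of 22.8 CPM. MX1 was at 236 CPM in OO-99 against an OO median of 47.5 CPM. Markers of hepatocytes moved in the same comparison, with 6 of 8 lower and CYP2E1 (log2 fold change -0.62, adjusted p = 0.0211) and SERPINA1 (-1.25, adjusted p = 0.0150) called. The row of SERPINA1 was low for a hepatocyte marker, at 0.64 to 3.78 CPM over the liver libraries, where ALB was at 59974 to 147967 CPM. All 9 macrophage markers were higher, with none called, and their part in the result was not tested.

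Outside the members, 2 of 19 other interferon-stimulated genes were called higher in OO liver. They were PSMB9 (log2 fold change 0.89, SE 0.24, adjusted p = 0.0456) and PSMB8 (0.70, SE 0.19, adjusted p = 0.0474), subunits of the immunoproteasome that cuts peptides for display on MHC class I. Of these 19 genes 17 were above 0, with a median of 0.26. Of 11 transcription factors 7 were above 0 (median 0.11), 1 was called lower and 3 were at an unadjusted p under 0.05. No receptor, kinase, inhibitor, upstream sensor or adaptor was called in OO liver. The ligand genes were near 0 in all liver libraries, with IFNG at 0.04 to 0.47 CPM and IFNE at 0.00 to 0.03 CPM.

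Oxidized oil with PFA against control gave no called member, where 5.08% of all genes were called. DESeq2 called 2 members, DTX3L and GBP1. At an unadjusted p under 0.05 were 6 members, all lower, against 22.6% of all genes. DTX3L, a ubiquitin ligase that acts with PARP9, was at 8.62 to 10.5 CPM in control and at 5.64 to 6.79 CPM in OO + PFA liver (log2 fold change -0.60, SE 0.21, adjusted p = 0.0841). GBP1 was at 49.6 to 106 CPM in control and at 29.4 to 52.6 CPM in OO + PFA liver (-0.72, SE 0.25, adjusted p = 0.0903). The others were OAS2 (-0.996, SE 0.43), TRIM21 (-0.37, SE 0.16), GBP2 (-0.55, SE 0.25) and PARP14 (-0.55, SE 0.26). Below 0 were 33 of 38 members, against 51.2% of all genes, with a median of -0.31. In 8 members, IFI44, ADAR, GBP2, EIF2AK2, RSAD2, DTX3L, IFI44L and PARP9, every OO + PFA pig lay below every control pig. This is 8 of 38, where 9.0% of all genes had groups apart in either direction. Of all 13831 genes, 259 lay wholly below and 986 wholly above control. The 8 members share the same libraries and do not add up as separate evidence. Markers of some other cells were lower as well. All 7 T cell markers were below 0 (median -0.47), with 3 at an unadjusted p under 0.05 and none called, and their summed level was 27.6 to 66.6 CPM in control and 27.6 to 49.8 CPM in OO + PFA liver. All 7 B cell markers (median -0.33) and all 8 hepatocyte markers (median -0.36) were below 0, with CYP2E1 called (-0.58, adjusted p = 0.0322). Macrophage markers went the other way, with 8 of 9 above 0 (median 0.29), 2 at an unadjusted p under 0.05 and 0 called. Of 3 plasmacytoid dendritic cell markers 2 were above 0 (median 0.03). The part of these cells in the difference was not tested.

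The comparison of OO + PFA with OO bears on what PFA adds to the challenge, though diet and pen cannot be told apart in it. No member was called and none of all genes was (0%), while DESeq2 called 31 genes and no member. At an unadjusted p under 0.05 were 14 of 38 members, all lower, against 8.5% of all genes in either direction, and 16 by DESeq2. Below 0 were 37 of 38 members, against 53.5% of all genes, and the median was -0.53 on the log2 scale (all genes -0.02). TRIM25 was the exception at 0.16. By role the medians were -0.43 for sensors, -0.65 for effectors, -0.49 for modifiers and -0.38 for signalling and other genes. No member's groups were apart, which held for 0.774% of all genes.

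The smallest p was that of GBP1. It was at 42.3 to 146 CPM (median 75.9) in OO and at 29.4 to 52.6 CPM (median 42.4) in OO + PFA liver, so the groups met only through OO-102, the lowest OO pig. Its log2 fold change was -0.97 (SE 0.26, unadjusted p = 9.1e-04, adjusted p = 0.285). IFIT2 was at 10.02 to 54.2 CPM (median 21.9) in OO and at 9.13 to 16.4 CPM in OO + PFA (-1.02, SE 0.33). NMI was at 15.7 to 29.5 CPM in OO and at 13.5 to 18.7 CPM in OO + PFA (-0.48, SE 0.16), and here too OO-102 was the lowest OO pig. DTX3L (-0.57, SE 0.21), PARP14 (-0.68, SE 0.26) and IFIT1 (-0.86, SE 0.35) followed. The remaining members at an unadjusted p under 0.05 were IFI35, BST2, SAMD9, GBP2, IFIH1, RSAD2 (-1.14, SE 0.53), ISG15 (-1.61, SE 0.76) and HERC6. Without OO-99 the value of ISG15 was 0.01.

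Single OO pigs set much of this difference. Without OO-99, 31 of 38 members stayed lower, with a median of -0.31 and 5 at an unadjusted p under 0.05. Without OO-102, the lowest OO pig, 23 members were at an unadjusted p under 0.05, with a median of -0.67. The liver titles come in 2 forms, PigLiv and PL, whose meaning the labels do not give. Within the PigLiv libraries 36 of 38 members were lower (median -0.65) and within the PL libraries, with 1 OO + PFA pig, 33 of 38 (median -0.58), neither with a called member. T cell markers moved the same way, with 7 of 7 lower (median -0.67), 4 at an unadjusted p under 0.05 and none called. The lowest p was that of CD2 (-0.91, SE 0.26, adjusted p = 0.337). Their summed level was 31.8 to 72.3 CPM in OO and 27.6 to 49.8 CPM in OO + PFA liver. B cell markers had a median of -0.41, and hepatocyte (-0.01) and macrophage (-0.06) markers had medians near 0. The part of these cells in the difference was not tested.

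Other genes of the interferon response were read in the same comparison. Of 19 other interferon-stimulated genes 16 were lower in OO + PFA than in OO (median -0.33), none was called and 7 were at an unadjusted p under 0.05. PSMB9 (-1.35, SE 0.26, adjusted p = 0.0942), PSMB8 (-0.95, SE 0.20, adjusted p = 0.0970) and the peptide transporter TAP1 (-0.56, SE 0.18) had the smallest p. Of 11 transcription factors 6 were lower (median -0.02) and 2 were at an unadjusted p under 0.05. Receptors and kinases (7 of 8 lower, median -0.11), inhibitors (4 of 6 lower, median -0.07) and upstream sensors and adaptors (6 of 8 lower, median -0.07) held no gene at an unadjusted p under 0.05.

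**Figure D4:**
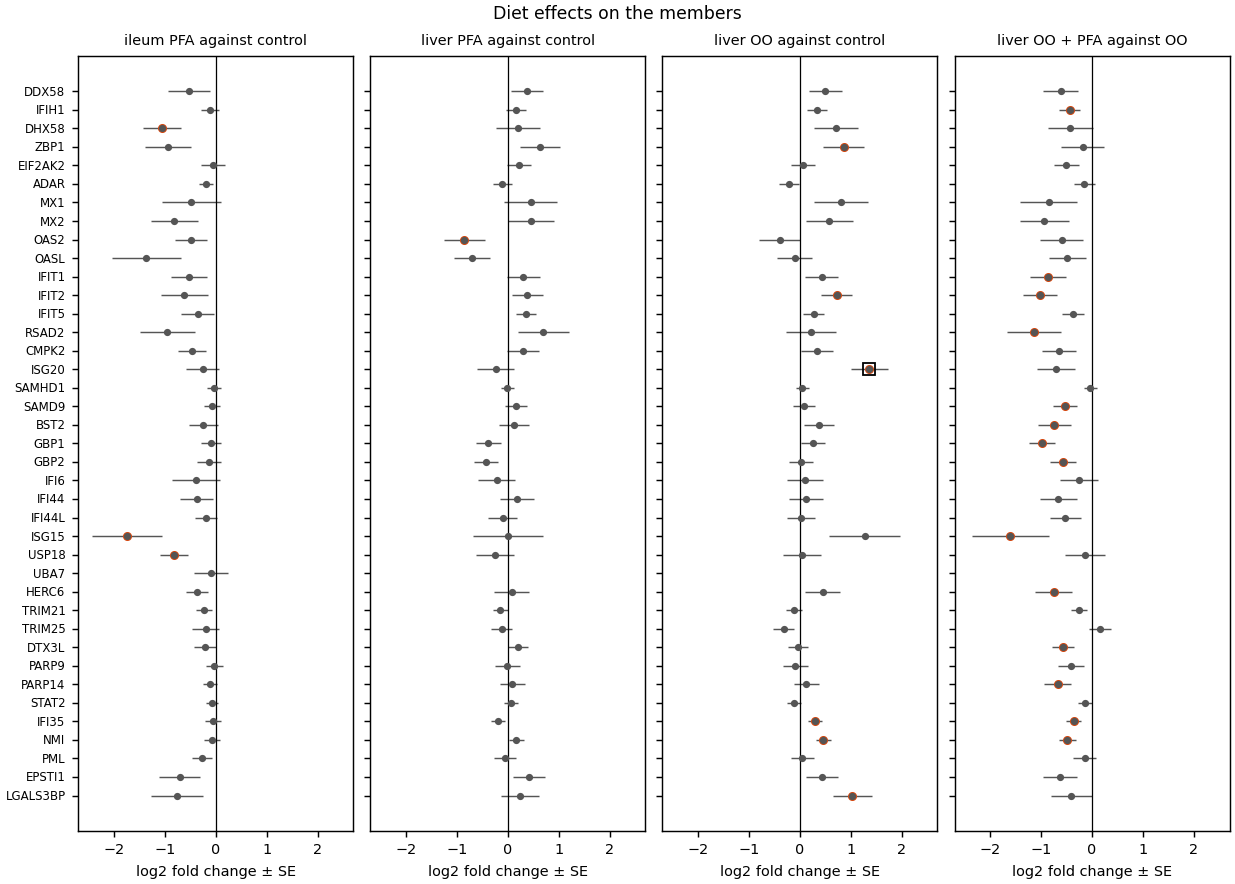
Log2 fold change with its standard error (bars) of each member in 4 comparisons: PFA against control in ileum and in liver, OO against control and OO + PFA against OO in liver. Orange marks an unadjusted p under 0.05 and an open square an adjusted p of 0.05 or less, which ISG20 alone has, in OO against control.

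Whether PFA acts differently in the 2 tissues was tested in the 10 pigs with both libraries. No member was called for a difference of the PFA effect (ileum minus liver), and none of all 14982 genes was (0%). No member was at an unadjusted p under 0.05, against 4.93% of all genes, and DESeq2 found 1. The lowest p were those of ZBP1 (difference in log2 fold change -1.29, SE 0.63, unadjusted p = 0.0516), ISG15 (-1.73, SE 0.97), DHX58 (-0.90, SE 0.53), EPSTI1 (-0.80, SE 0.49), RSAD2 (-0.96, SE 0.67) and LGALS3BP (-0.89, SE 0.62). These SEs come from the same fit without a term for the pig and ignore the pairing. With SEs of this size a difference could be missed. Below 0 were 26 of 39 members, against 53.1% of all genes, with a median of -0.14, and without C-100 18 of 39 with a median of 0.09.

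Agreement of the tissues asks whether a pig with a high level in ileum also has one in liver. The 2 libraries of a pig were matched by diet and number. Over all genes the own match correlated best in 6 of 10 pigs, and not in C-100. For each gene the log2 CPM was centred within diet, and Pearson's r over the 10 pigs was tested by an exact permutation of pigs within diet (14400 orders, two-sided). Of 38 members tested, 4 had a positive r with an unadjusted exact p under 0.05, against 3.9% of all 13058 genes, and none passed the adjustment over all genes. The 4 were IFI6, MX1, SAMHD1 and DDX58. In all 30 of 38 members had a positive r, with a median of 0.30 (all genes 0.12).

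IFI6 had r = 0.78 (exact permutation p = 0.0335, adjusted 0.971) and Spearman's rho = 0.65 (exact permutation p = 0.0887, adjusted 1.0). Without the 2 pigs farthest from the ileum median r was 0.42. MX1 had r = 0.72 (exact permutation p = 0.0315, adjusted 0.959) and rho = 0.61 (p = 0.0793), with r = 0.38 without the 2 farthest pigs. Leaving out the pigs at the ends of the ileum values narrows their range, which can lower r by itself. How far the relation rests on 2 pigs was therefore not tested. SAMHD1, a nucleotide hydrolase that limits viral DNA synthesis, had r = 0.67 (exact permutation p = 0.0263, adjusted 0.932) and rho = 0.73 (p = 0.0235), and r was 0.80 without the 2 farthest pigs. DDX58 had r = 0.65 (exact permutation p = 0.0201, adjusted 0.887) and rho = 0.56 (p = 0.0828), with r = 0.33 without the 2 farthest pigs. IFIT5 (r = 0.66) and TRIM21 (r = 0.59) followed, and ISG20 (-0.18), PARP14 (-0.17) and ZBP1 (-0.16) were lowest.

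The level of the whole group was also compared between tissues. For the mean of the members per pig r was 0.18 and rho -0.01, given without a test, and r was -0.07 without C-100 and P-75. C-100, highest in ileum at 0.95, stood at -0.10 in liver, while P-75 was above the mean in both tissues (0.20 and 0.44). For MX1, picked here after its values were seen, C-71 was low relative to the mean of the other members of the same pig, in ileum (-1.93) and in liver (-1.67). Its MX1 was at 31.9 CPM in ileum, the lowest control value, and at 8.61 CPM in liver, where the other 5 control pigs were at 35.5 to 72.5 CPM. This relative scale was not centred within diet, so differences between the diets enter its r. As a description, r was 0.86 for MX1, 0.85 for IFI6, 0.70 for USP18 and 0.58 for OAS2. On log2 CPM centred within diet, r was 0.27 for USP18 and 0.14 for OAS2, against 0.72 for MX1 and 0.78 for IFI6. For OAS2 C-80 was the highest control pig in both tissues, at 786 CPM in ileum and 446 CPM in liver.

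**Figure D5:**
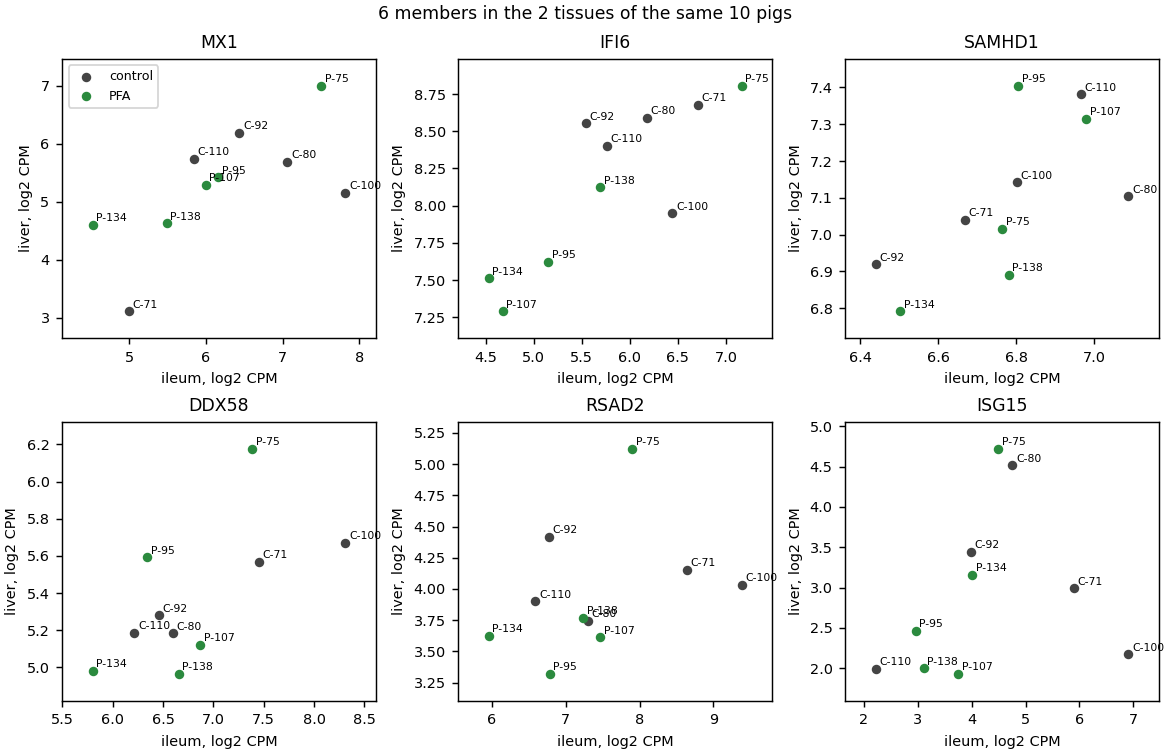
Log2 CPM in ileum (x axis) and liver (y axis) of MX1, IFI6, SAMHD1, DDX58, RSAD2 and ISG15 in the 10 pigs with both libraries, coloured by diet. C-71 lies at the lower left of MX1, and C-100 lies at the right of RSAD2 and ISG15 without being high in liver.

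Genes that are no members but followed the mean of the members across pigs were ranked by the mean of their 2 within-tissue Pearson correlations, after centring within diet over 10 ileum and 23 liver pigs. The highest were PARP12 (0.94), HERC5 (0.93), ZNFX1 (0.92), DDX60 (0.88), FBXO39 (0.86) and UBE2L6 (0.86), followed by ETV7 (0.81) and by 3 genes without a symbol, of which ENSSSCG00000014670 (0.86) and ENSSSCG00000034802 (0.79) were the highest. Among the members themselves CMPK2 (0.98) and its neighbour RSAD2 (0.96) were highest, and SAMHD1 (-0.03) and STAT2 (0.27) lowest. Each member is part of the mean it was compared with, so its value is not on a par with those of the other genes. These values describe likeness over pigs that share libraries and scaling.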

How the data were processed

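RNA from pieces of mid ileum and of liver was sequenced after stranded, poly(A)-enriched library preparation. The authors aligned the reads with STAR 2.6.1d to Sscrofa11.1 and counted them per gene with HTSeq; DESeq2 1.22.2 is named in the submitters' processing notes for the comparisons. The strand setting and annotation release are not given in the sources used here. The deposited values are raw counts, whole reads per Ensembl gene with no normalization. Rows that name no gene (no feature 6.53% to 20.6%, ambiguous 1.68% to 3.29%, not uniquely aligned 2.55% to 23.2% of each library's counts) were left out of library sizes and tests. Tables of the whole series repeat these counts and were not used.

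Groups came from the GEO labels. Counts were fitted with edgeR 4.0.16 (R 4.3.3; TMM scaling, filterByExpr, quasi-likelihood test), with the ileum pigs in one fit, 23 liver libraries in another, and the 20 libraries of the 10 pigs with both tissues in a separate fit. P-values were adjusted by Benjamini-Hochberg over all genes, and a gene was called at an adjusted p of 0.05 or less. Levels are TMM-scaled CPM, and log2 CPM uses a prior count of 2. Depth sets the precision of low members such as UBA7 and ISG20 in liver. Members and lists were chosen with earlier results of these data known. Named are members called in any comparison, the 6 with the lowest p in each, those at the ends of the level, spread and correlation orders, MX1, RSAD2, IFIT1, OAS2, ISG15, USP18 and STAT2 throughout, and 10 followers; of the 3 genes with the lowest p in each other list, those that bear on the text are given. Other members are given where a count is spelled out.

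Ileum and liver libraries with the same diet and number were taken to come from the same pig. Deviations of the 2 libraries of a pig from their group means correlated across genes at -0.25 to 0.54, over 0.1 in 8 of 10 pigs. In 6 of 10 pigs this correlation was higher than the best one with another pig. In C-100 (0.04 against 0.16), C-92 (0.13 against 0.23), P-95 (0.13 against 0.40) and P-138 (-0.25 against 0.37) it was lower. The values therefore leave the match of these pigs unchecked. Alternatives were DESeq2 1.42.0, its size factors in edgeR, no filter on low counts, all 24 liver libraries, a term for title form, the pig as a block, Spearman correlation and leaving out each pig; chosen after seeing the data were fits within each title form and library sizes alone. The fits were tested on simulated data. Some results of the other lists are not reported here.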

Additional observations from a re-analysis of the deposited data

Results flagged for a closer look

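Within 230 groups of 5 or 6 pigs, 1 member at a time, 11 had a highest or lowest pig set far apart from the rest by Dixon's criterion, where chance alone gives about 1 in 20, or 12. In OO + PFA liver OP-79 was highest for ADAR (23.4 CPM, next 20.7), BST2 (21.7 CPM, next 13.8) and ZBP1 (5.49 CPM, next 3.40), and OP-137 was lowest for DDX58 (19.7 CPM, next 40.4) and IFI44 (16.8 CPM, next 25.0). In control liver C-71 was lowest for MX1 (8.61 CPM, next 35.5) and highest for PARP14 (58.0 CPM, next 46.4). P-67 was highest in PFA liver for PARP9 (55.7 CPM, next 25.5), and OO-99 in OO liver for PML (59.1 CPM, next 31.7). In ileum C-100 was highest among control pigs for HERC6 (472 CPM, next 286), and P-95 lowest among PFA pigs for IFIT2 (20.1 CPM, next 70.8).

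The liver library of OP-77, which entered no comparison, had 5 of 38 members above and 22 below every control library. Its mean log2 CPM over the members was 4.15, against 4.51 to 4.94 in the control livers.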

How the results depend on the processing

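Counts of called members moved by over 1.5 times in 4 comparisons. Over the 4 liver diets, where 1 member was called, DESeq2 called 3, all 24 libraries gave 2, and the PigLiv and the PL libraries alone gave 0 each. For OO against control (1 called) no filter on low counts, all 24 libraries, PigLiv alone and PL alone gave 0. For OO + PFA against control (0 called) DESeq2 gave 2 and all 24 libraries 1. For the agreement of tissues (4 members) Spearman gave 2. Leaving out 1 pig at a time gave 0 to 4, 0 to 2, 0 to 1 and 1 to 6 members in these comparisons, and the causes of these changes were not tested. Reversed log2 fold changes were those of IFI35 in OO liver within the PL libraries (-0.0391), of ISG15 in OO + PFA against OO (-1.87 to 0.0132 without 1 pig at a time, the last without OO-99), and of IFI35 (0.543) and BST2 (0.673) in ileum against liver with library sizes alone. With the pig as a block (paired), 0 members were called for the tissue difference of the PFA effect and 30 between ileum and liver, so the block changed no call by over 1.5 times. Of 1578 alternative values of 74 named log2 fold changes, 1544 had the direction and side of the threshold given above, 22 no longer passed, 8 newly passed and 4 reversed. Over all genes, DESeq2 called 1776 in place of 506 for the 4 diets, 1079 in place of 375 for OO, 1370 in place of 702 for OO + PFA, and 43 and 31 in place of 0 for liver PFA and OO + PFA against OO; all 24 libraries gave 1113, 224 and 1530 for the first 3. Fits within PigLiv called 157, 114 and 237, and within PL 44, 8 and 12, with fewer libraries. Settings within a title form and library sizes alone were chosen after seeing the data. Depth limits low members: in liver ISG20 rests on levels of 0.675 to 10.3 CPM.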
